A study of Macaca mulatta with 8 samples.

Results

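Antioxidant, glutathione and metallothionein transcripts were examined in rhesus macaque oocytes arrested at metaphase II, ready to be fertilized. They were taken by name from the array's annotation: every probe set with a single gene symbol that starts with SOD, GPX, PRDX, TXN, GST, GCL, GLRX, MSRA, MSRB or PON and goes on with a digit or letter, and those of MT2A, GGCT, SRXN1, GSR, GSS, CAT, NQO1 and HMOX1. This gave 93 probe sets of 48 genes, out of 52766 probe sets on the array and 24956 with 1 gene symbol. The rule uses gene symbols alone, but it was written with earlier results of these data known. GSR, GSS, NQO1 and HMOX1, as well as GPX1, PRDX1 and TXNRD1, had no probe set under their symbol and were not analysed here. A group of 4 arrays held oocytes matured in vitro, that is in culture, and a group of 4 arrays held oocytes matured in vivo, in the animal. Each array carried RNA from a pool of 4 oocytes of the same species and stage, after 2 rounds of amplification. Animals, ages, culture medium and hormone treatment are not given in the labels. The arrays are labelled biological replicates, but whether pools came from separate animals is not stated, so the p-values speak of the spread among these pools.

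A maturing oocyte meets reactive oxygen from its mitochondria. Superoxide dismutases turn superoxide into hydrogen peroxide, which catalase, glutathione peroxidases and peroxiredoxins remove. Glutathione, the main small thiol of the cell, is built from glutamate, cysteine and glycine, stored in large amounts during oocyte maturation and spent by peroxidases, transferases and glutaredoxins. Thioredoxin proteins keep protein thiols reduced, methionine sulfoxide reductases repair oxidised methionine, and metallothioneins bind zinc and copper through their many cysteines.

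The deposited values are MAS5 signals, a brightness per probe set on a linear scale. For the comparison they were taken as log2(signal + 8.2), and a log2 fold change is in vitro minus in vivo on that scale, which understates the change of dim probe sets. Probe sets with a mean signal above the median probe set were tested with limma, which kept 68 of the 93 member probe sets and 44 of the 48 genes. CAT, GSTO2, GSTT1 and PRDX6 were too dim to be tested. The background of each array, set at the 95th percentile over controls for transcripts not added to the samples, lay between 15.7 and 27.0. Of the tested member probe sets, 59 were above background on all 8 arrays, and of the untested ones 0 were. Signals of different probe sets are not compared with each other, since each has its own affinity.

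The oocyte identity of the pools was visible in both groups: 10 of 11 oocyte markers on the array, among them ZP3, BMP15 and MOS, were above background on all 8 arrays. The ratio of 3' to 5' EEF1A1 control signals, a measure of how completely transcripts were amplified, was less even. On the log2 scale it ran from 1.84 to 2.29 in vitro, while in vivo it was 1.43 and 1.44 in replicates 1 and 3 but 2.94 and 3.67 in replicates 2 and 4. In vivo replicates 2 and 4 therefore stand apart by the EEF1A1 ratio. By the beta-actin ratio they stood apart less clearly. It was 7.09 and 6.68 in in vivo replicates 2 and 4, and 6.15 and 5.62 in replicates 1 and 3. In vitro it ran from 5.62 to 6.65, so in vivo replicate 4 was barely above that range. Results of members whose call or direction turns without in vivo replicates 2 and 4 are given both ways.

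Of the 68 tested member probe sets, 1 rose and 0 fell at a limma adjusted p of 0.05, against 0.148% of all 26378 tested probe sets called in either direction, 0.0986% higher and 0.0493% lower. The probe set that rose is the only one of MT2A. At an unadjusted p under 0.05 there were 9 higher and 7 lower member probe sets, 23.5% of those tested, beside 10.3% of all tested probe sets, 4.66% higher and 5.61% lower. The groups did not overlap at 5 member probe sets in the higher direction and at 3 in the lower, beside 6.33% of all tested probe sets, 3.18% higher and 3.15% lower. Without in vivo replicates 2 and 4, left out after seeing the data, 3 member probe sets rose (MT2A, GGCT and TXNIP) and 3 fell (GPX4 at a pair of probe sets and PON3), against 0.853% of all tested probe sets called higher and 1.94% lower. Several of these probe sets share a gene, so the counts are not counts of independent genes. The median log2 fold change was 0.07 over the members and 0.00 over all tested probe sets, and a difference beyond 1 on the log2 scale was found at 8.82% of the members and 3.23% of all. The members thus did not move one way: 38 had a positive and 30 a negative log2 fold change. Without in vivo replicates 2 and 4 the sign turned at 13 of the 68, of which 12 became negative. In that setting the median log2 fold change was -0.196 over the members and -0.0338 over all tested probe sets. The share of turned signs over all tested probe sets is not given here.

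**Figure D1:**
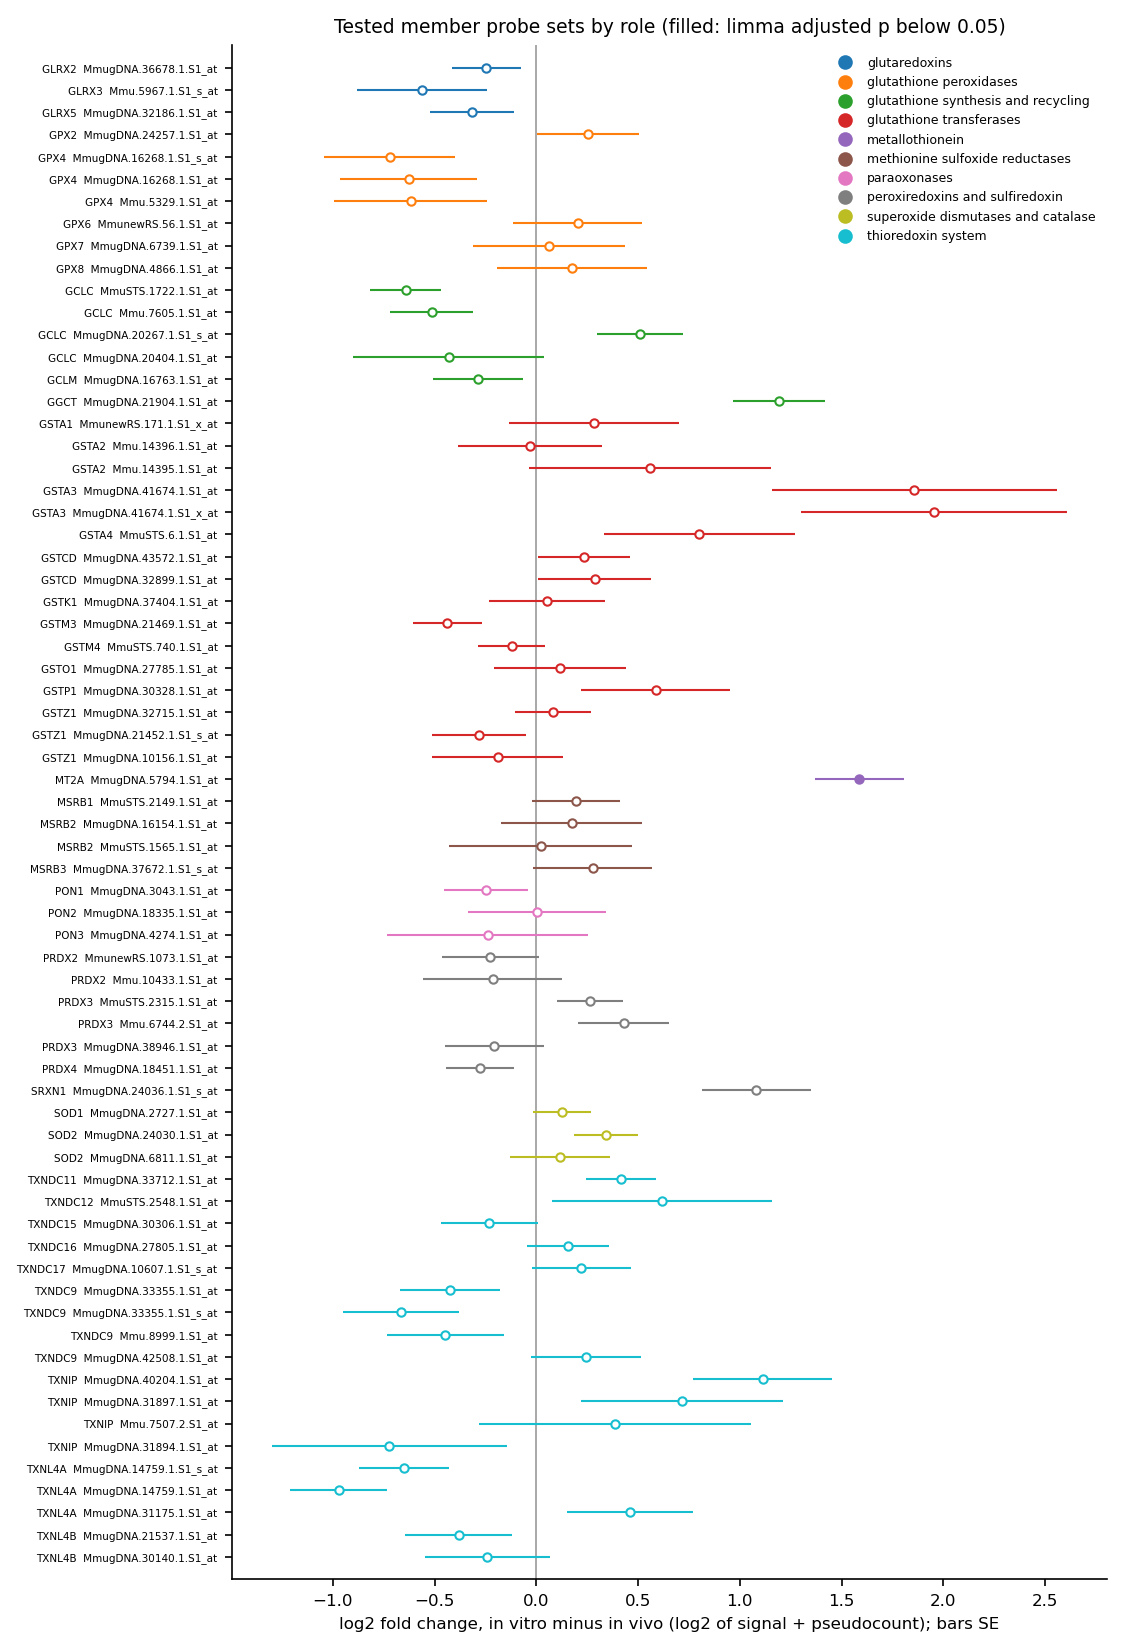
Log2 fold change (in vitro minus in vivo, x axis) of each of the 68 tested member probe sets, with bars for the standard error and colours for roles. Only the MT2A point is filled, for a limma adjusted p below 0.05; the GSTA3, GGCT, TXNIP and SRXN1 points lie beyond 1 without passing, and probe sets of GCLC, TXNIP and TXNL4A lie on both sides of 0.

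MT2A encodes the metallothionein that most tissues make when zinc, cadmium or glucocorticoids rise. Its signal was 12108, 12952, 8885 and 8102 in the in vitro pools, against 5331, 2815, 3209 and 2852 in the in vivo pools. The lowest in vitro pool was above the highest in vivo pool. The mean was 10512 ± 2377 in vitro and 3552 ± 1199 in vivo (SD, n = 4 each), a 3.01-fold difference (log2 fold change 1.59 ± 0.22 SE, limma adjusted p = 0.00618). In vivo replicate 1 was the highest of its group. Without in vivo replicates 2 and 4, left out after seeing the data, the log2 fold change was 1.32 and the limma adjusted p was 0.00523. The call ended in a fit without the intensity trend, where the limma adjusted p was 0.162.

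The other metallothioneins on the array are not members, and they are given here because they resemble MT2A closely and their probe sets may share targets. They were chosen after their values were seen. The MT1E probe set was at 10178, 11208, 9956 and 7584 in vitro and 7610, 9766, 7486 and 13631 in vivo, and the groups overlapped (log2 fold change 0.05, limma adjusted p = 0.958). Of the MT1X probe sets, 1 was at 3882 ± 328 in vitro and 3638 ± 766 in vivo (log2 fold change 0.11). The 3 further MT1X probe sets had negative log2 fold changes of -0.39, -0.88 and -0.98, and at the last pair in vivo replicate 4 stood highest with 12010 and 12929. MT3, best known as a brain metallothionein, was at 1395, 1420, 642 and 248 in vitro and 232, 123, 156 and 248 in vivo. Its groups met only between in vitro replicate 4 and in vivo replicate 4, and its log2 fold change of 1.99 ± 0.44 SE did not pass (limma adjusted p = 0.109).

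MT2A was set beside its relatives by the log2 ratio of the signals within each array. These ratios were chosen after the values were seen, and all share the MT2A values, whose groups were already apart. Their p-values are therefore a description and add no separate support. The log2 fold change of MT2A exceeded that of MT1E by 1.54 and those of the 4 MT1X probe sets by 1.47 to 2.56, with the groups apart at each. Every one of these 5 ratios had an exact two-sided permutation p of 0.0286, the smallest that 70 assignments can give, and 0.0408 after Benjamini-Hochberg adjustment over the 10 ratios compared for MT2A, GCLC and TXNL4A. The ratio of MT2A to MT3 differed by -0.41 (exact two-sided permutation p = 0.457). MTF1, the zinc-sensing transcription factor of metallothionein genes, had log2 fold changes of 0.13 and -0.27 at its 2 probe sets, neither past the threshold. The genes outside the members whose log2 values over the 8 arrays were most like those of MT2A were BDKRB1 (Pearson r = 0.977), UTP20 (r = 0.976) and ANGPTL4 (r = 0.966). These values share the same 8 arrays and the same group difference and are a description.

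**Figure D2:**
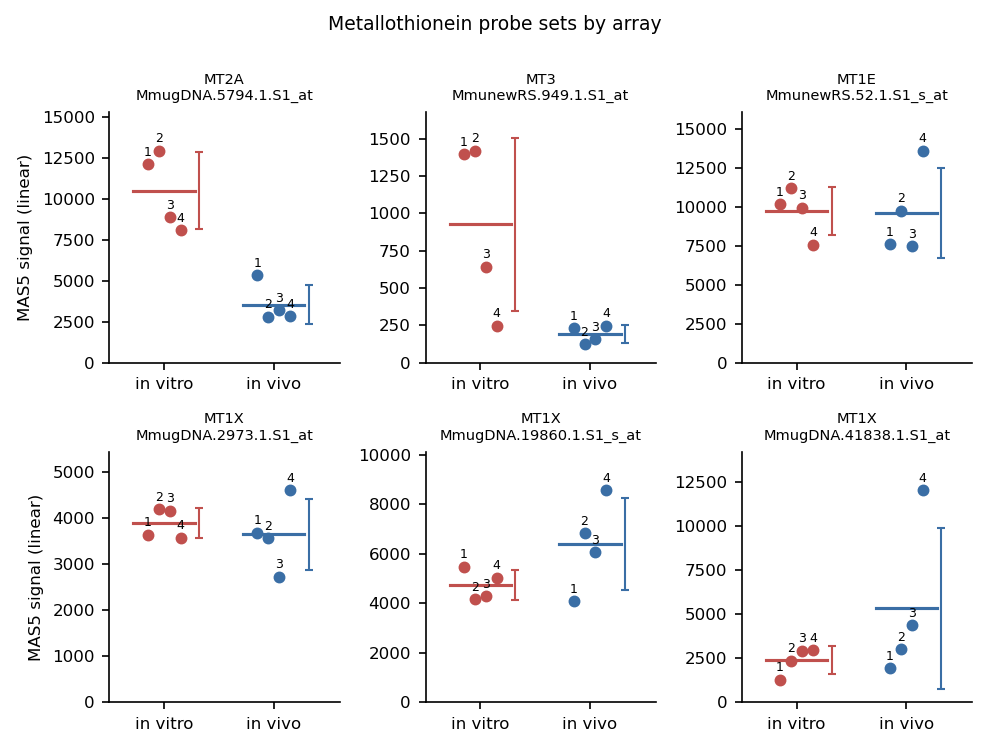
MAS5 signal (linear y axis, its own scale in each panel) of 6 metallothionein probe sets in the in vitro arrays (left, red) and the in vivo arrays (right, blue); numbers are replicates, lines are means and bars are SD. The 4 in vitro MT2A points, from 8102 to 12952, lie above all in vivo points, while the MT1E and MT1X groups overlap.

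Markers of other follicle cells were read beside MT2A, and in pooled samples such as these fewer cells of a type and less RNA per cell cannot be told apart. Granulosa and cumulus cells lie around the oocyte in the follicle. Of their 14 tested markers INHBA and STAR rose and 0 fell, against 0.0986% of all tested probe sets called higher and 0.0493% lower. The log2 fold changes of these markers ran from -1.20 to 3.08, with a median of -0.05. A difference beyond 1 on the log2 scale was found at 35.7% of them, beside 3.23% of all tested probe sets. At an unadjusted limma p under 0.05, 4 were higher and 1 lower, 35.7% beside 10.3% of all tested probe sets. The groups did not overlap at 3 in the higher direction and 1 in the lower, 28.6% beside 6.33% of all. The summed signal of the list was 22189 to 30756 in vitro and 22784 to 25751 in vivo, so the ranges overlapped. A single SERPINE2 probe set, with means of 12488 in vitro and 13703 in vivo, made up a large part of this sum. The sum therefore says little about the dimmer markers. CYP19A1, the estrogen-making enzyme of granulosa cells, was at 103, 156, 95.9 and 58.7 in vitro and 47.8, 295, 75.8 and 39.7 in vivo, and FSHR, LHCGR, CYP11A1 and FOXL2 were not analysed here. None of 4 tested blood and immune markers passed. PTPRC, the leukocyte common antigen, was above background on 0 in vitro arrays and 1 in vivo array at its brightest probe set, and the list summed to 81.1 to 179 in vitro and 176 to 277 in vivo. For the theca, stroma and endothelium list 0 of 6 tested genes passed, with sums of 625 to 1305 in vitro and 512 to 757 in vivo. At an unadjusted limma p under 0.05, 2 of these genes were higher and 1 lower, 50% beside 10.3% of all tested probe sets. The groups did not overlap at 2 in the higher direction and 1 in the lower, 50% beside 6.33% of all. The part of such cells in the MT2A difference was not tested.

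Glutathione synthesis begins with glutamate-cysteine ligase, whose catalytic subunit GCLC sets the rate and whose modifier subunit is GCLM. At its brightest probe set GCLC was at 3513, 3356, 3088 and 2970 in vitro, against 3789, 5430, 4897 and 6402 in vivo. All in vitro pools were below all in vivo pools, with in vivo replicate 1 close to the in vitro range. The log2 fold change of -0.64 ± 0.17 SE did not pass (limma adjusted p = 0.221). A second GCLC probe set also separated the groups, at 423, 391, 275 and 408 in vitro and 538, 540, 619 and 442 in vivo (log2 fold change -0.51, limma adjusted p = 0.402). A further GCLC probe set lay the other way, at 399, 356, 436 and 385 in vitro and 231, 241, 378 and 266 in vivo, where only in vivo replicate 3 reached the in vitro range (log2 fold change 0.51, limma adjusted p = 0.416). The probe sets of this gene thus disagree: the ratio of the last to the brightest differed between groups by 1.15 on the log2 scale, and that of the last to the second by 1.02 (exact two-sided permutation p = 0.0286 each, 0.0408 after adjustment over the 10 ratios). This comparison was chosen after the values were seen, between probe sets that lay in opposite directions. The adjustment also spans the MT2A ratios, which all share the MT2A values. These p-values are therefore a description and add no separate support. The remaining tested GCLC probe set was dim, at 26.5 ± 15.2 in vitro and 35.5 ± 14.8 in vivo, and GCLM had a log2 fold change of -0.29 ± 0.22 SE.

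GGCT, gamma-glutamylcyclotransferase, acts on the breakdown side and splits gamma-glutamyl dipeptides that arise from glutathione. Its single probe set was at 1282, 1359, 1225 and 1952 in vitro, against 437, 772, 552 and 795 in vivo. The groups did not overlap, and in vitro replicate 4 was the highest pool. The mean was 1454 ± 336 in vitro and 639 ± 174 in vivo (SD, n = 4 each), a 2.29-fold difference with a log2 fold change of 1.19 ± 0.23 SE. It missed the threshold narrowly (limma adjusted p = 0.0568). The limma adjusted p was 0.00329 without in vivo replicates 2 and 4, 0.0218 without in vivo replicate 4 alone, and 0.231 at the highest with another array left out. Across the settings tried, GGCT passed in 9 of 22.

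**Figure D3:**
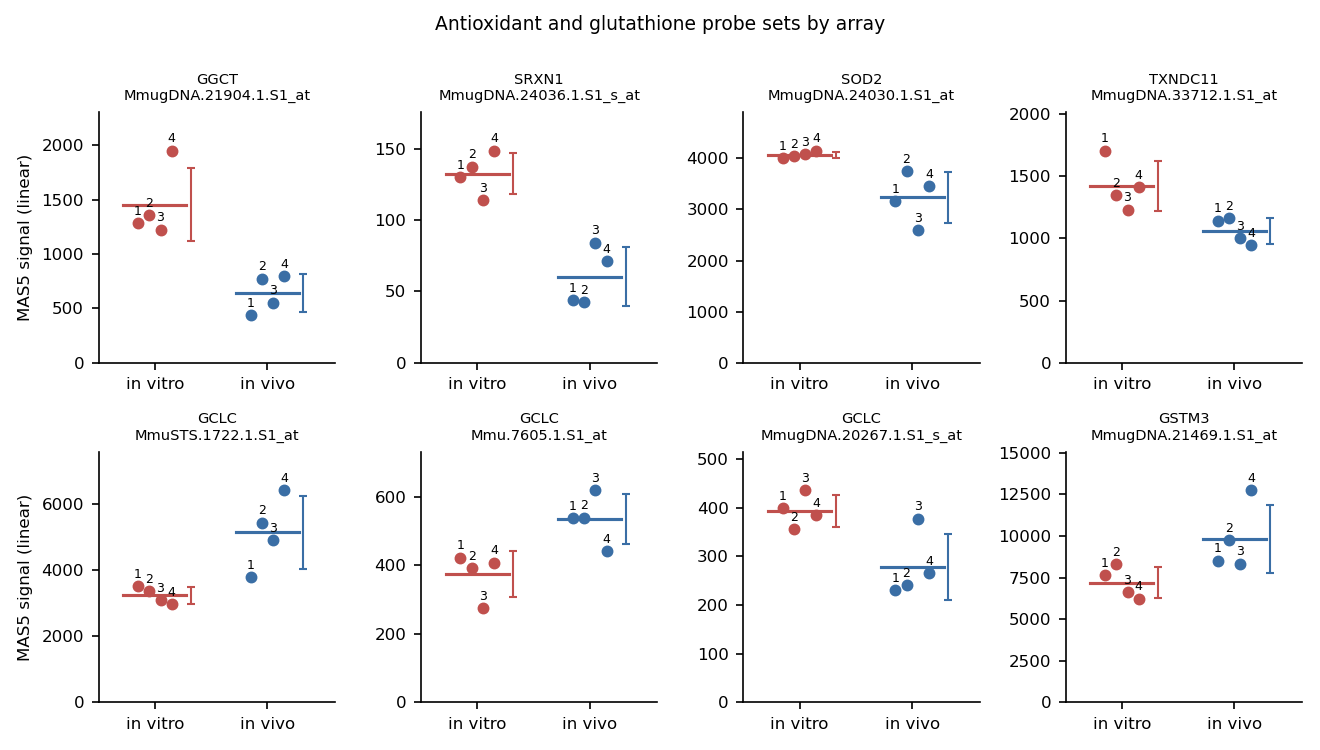
MAS5 signal (linear y axis, its own scale in each panel) of 8 member probe sets in the in vitro arrays (left, red) and the in vivo arrays (right, blue); numbers are replicates, lines are means and bars are SD. The groups do not overlap for GGCT, SRXN1, SOD2, TXNDC11 and GSTM3 or for the first pair of GCLC probe sets, while the third GCLC panel lies the other way with an overlap at in vivo replicate 3.

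Glutathione is spent by peroxidases, transferases and glutaredoxins, and 0 of their 7, 16 and 3 tested probe sets passed. GPX4, the selenium enzyme that reduces lipid peroxides in membranes, was lower on average at its 3 tested probe sets, with log2 fold changes of -0.72, -0.63 and -0.62. At the brightest it was at 417, 346, 329 and 187 in vitro and 872, 318, 673 and 366 in vivo. The high values were in vivo replicates 1 and 3, and replicates 2 and 4 lay within the in vitro range. Without replicates 2 and 4 the GPX4 log2 fold changes were -1.29, -1.22 and -1.26 (limma adjusted p = 0.0336, 0.0434 and 0.0695). The other peroxidases GPX2, GPX6, GPX7 and GPX8 had log2 fold changes of 0.25, 0.20, 0.06 and 0.18, and of 0.36, 0.20, -0.38 and -0.61 without replicates 2 and 4, so the direction of GPX7 and GPX8 turned with those arrays.

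Glutathione transferases couple glutathione to reactive compounds. GSTA3, an alpha-class enzyme that in humans also takes part in steroid synthesis, had the largest log2 fold change of the tested members. Its brightest probe set was at 1038, 4306, 1778 and 1153 in vitro and 1458, 276, 1360 and 87.2 in vivo. In vivo replicates 1 and 3 lay within the in vitro range, and replicates 2 and 4 were far below it. The log2 fold change of 1.86 ± 0.70 SE (limma adjusted p = 0.380) became 0.30 without those 2 arrays, and that of the second probe set, 1.96, became 0.48. GSTP1, the pi-class enzyme, was at 563, 715, 347 and 391 in vitro and 628, 169, 459 and 211 in vivo, where replicates 1 and 3 were again above replicates 2 and 4. Its log2 fold change was 0.59, and -0.15 without in vivo replicates 2 and 4.

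GSTM3, a mu-class enzyme, separated the groups in the lower direction, at 7651, 8321, 6625 and 6229 in vitro, against 8518, 9756, 8339 and 12746 in vivo. The groups nearly met between in vitro replicate 2 and in vivo replicate 3. The log2 fold change was -0.44 ± 0.17 SE (limma adjusted p = 0.391). Its relative GSTM4 was at 4269 ± 254 in vitro and 4700 ± 868 in vivo. Alpha- and mu-class genes have close copies, so their probe sets may read more than the named gene. GSTA4, an alpha-class enzyme for lipid aldehydes, had 0.80, and in vivo replicate 1 alone was below background there. GSTA1, GSTA2, GSTCD, GSTK1, GSTO1 and GSTZ1 had log2 fold changes between -0.28 and 0.56. Without in vivo replicates 2 and 4 the upper end, a dim GSTA2 probe set, became -0.13 and the brighter GSTA2 probe set became -0.66, beside -0.03 over all arrays. GSTO1 became -0.30 and GSTK1 -0.02 in that setting, beside 0.12 and 0.05 over all arrays, and GSTM4 became 0.01, beside -0.12. Among the glutaredoxins, which reduce protein thiols with glutathione or carry iron-sulfur clusters, the log2 fold change was -0.25 for the mitochondrial GLRX2, -0.56 for GLRX3 and -0.32 for GLRX5, and none passed. It was -0.28 for GLRX2, -1.11 for GLRX3 (limma adjusted p = 0.0561) and -0.16 for GLRX5 without in vivo replicates 2 and 4.

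Peroxiredoxins destroy peroxide with a cysteine that can be overoxidised, and sulfiredoxin, encoded by SRXN1, restores it. SRXN1 was at 130, 137, 114 and 149 in vitro, against 43.8, 42.3, 84.2 and 71.2 in vivo. All in vitro pools were above all in vivo pools, and the in vitro pools lay close together. The mean was 133 ± 14.6 in vitro and 60.4 ± 20.7 in vivo (SD, n = 4 each), a 2.12-fold difference whose log2 value of 1.08 ± 0.27 SE did not pass (limma adjusted p = 0.185). None of the peroxiredoxins passed. PRDX3, the mitochondrial peroxiredoxin, was at 3340 ± 246 in vitro and 2804 ± 469 in vivo at its brightest probe set, with log2 fold changes of 0.26, 0.43 and -0.21 over 3 probe sets. PRDX4, the peroxiredoxin of the endoplasmic reticulum, had -0.28, and the cytosolic PRDX2 had -0.23 and -0.21.

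Of the genes named after thioredoxin, 18 probe sets of 9 genes were tested and 0 passed. TXNIP, which binds thioredoxin and blocks it, was at 384, 451, 466 and 279 in vitro and 145, 377, 189 and 88.2 in vivo at its brightest probe set. Only in vivo replicate 2 reached the in vitro range. The log2 fold change there was 1.11 ± 0.34 SE (limma adjusted p = 0.285), and 1.19 without in vivo replicates 2 and 4 (limma adjusted p = 0.0330). The dimmer TXNIP probe sets had 0.72, 0.39 and -0.72, so the direction was not shared by all of them. TXNDC11, a protein of the endoplasmic reticulum, was at 1706, 1345, 1230 and 1410 in vitro, above 1142, 1161, 1001 and 945 in vivo, without overlap (log2 fold change 0.41 ± 0.17 SE, limma adjusted p = 0.420).

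Some genes of this name group do other work. TXNL4A and TXNL4B encode thioredoxin-fold proteins of the spliceosome. TXNL4A was at 294, 375, 462 and 319 in vitro and 456, 713, 833 and 928 in vivo at the probe set with its smallest p, where only in vivo replicate 1 and in vitro replicate 3 crossed. The log2 fold change was -0.97 ± 0.24 SE (limma adjusted p = 0.181), and -1.18 without in vivo replicate 1 (limma adjusted p = 0.0420). The brightest probe set had -0.65, and a dimmer TXNL4A probe set had 0.46. Their ratios differed by 1.43 and 1.11 between groups (exact two-sided permutation p = 0.0571 each, 0.0635 after adjustment over the 10 ratios). These ratios too were chosen after the values were seen, and their p-values are a description. TXNDC9, which binds the chaperonin that folds tubulin and actin, had -0.42, -0.67, -0.45 and 0.24, with in vivo replicate 3 the highest array at the first 3 of these. TXNL4B had -0.38 and -0.24, and TXNDC12, TXNDC15, TXNDC16 and TXNDC17 had 0.62, -0.23, 0.16 and 0.22. TXNDC12 was at 36.6, 57.9, 60.8 and 81.4 in vitro and 90.5, 27.7, 69.7 and 3.8 in vivo, and without in vivo replicates 2 and 4 its log2 fold change was -0.42.

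The superoxide dismutase probe sets varied less than the members at large, with a median SD of the log2 values of 0.11 in vitro and 0.18 in vivo. SOD1, the copper and zinc enzyme of the cytosol, was at 9401 ± 713 in vitro and 8637 ± 1007 in vivo, with a log2 fold change of 0.13 ± 0.14 SE. SOD2, the manganese enzyme of mitochondria, was at 4009, 4041, 4077 and 4152 in vitro, against 3162, 3755, 2589 and 3449 in vivo at its brightest probe set. The in vitro pools were nearly equal and all above the in vivo pools. The difference was small, 1.27-fold, and did not pass (log2 fold change 0.34 ± 0.16 SE, limma adjusted p = 0.474), and the second SOD2 probe set had 0.12. Catalase was too dim for the test: its brighter CAT probe set was at 32, 36.3, 28.5 and 31.3 in vitro, above background on all 4 arrays, and at 3.80, 16.2, 29.7 and 5.50 in vivo, above background on 2.

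The repair and esterase genes gave no called difference either. MSRB1, a selenium-containing methionine sulfoxide reductase, had a log2 fold change of 0.19, MSRB2 had 0.17 and 0.02, and MSRB3 had 0.28 at the only 1 of its 6 probe sets bright enough to be tested. Without in vivo replicates 2 and 4 all of these turned negative, to -0.02 for MSRB1, -0.42 and -0.59 for MSRB2 and -0.09 for MSRB3. The paraoxonases, which hydrolyse lactones and oxidised lipids, had -0.25 for PON1, 0.00 for PON2 (-0.23 without those 2 arrays) and -0.24 for PON3. PON3 was at 170, 269, 348 and 238 in vitro and 666, 289, 511 and 73.1 in vivo. Again in vivo replicates 1 and 3 were high and replicate 4 was low, and without replicates 2 and 4 the PON3 log2 fold change was -1.20 (limma adjusted p = 0.0391).

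The in vivo pools varied more among themselves than the in vitro pools. The median SD of the log2 values over the tested member probe sets was 0.30 in vitro and 0.45 in vivo, beside 0.32 in vitro and 0.43 in vivo over all tested probe sets. The SD was larger in vivo at 54 of 68 member probe sets (79.4%), against 66.4% of all tested probe sets. At 23 of the 68 (33.8%) in vivo replicates 1 and 3 were both above replicates 2 and 4, against 25.5% of all tested probe sets, and at 9 (13.2%) they were both below, against 18.3% of all. The split follows the EEF1A1 ratio given above, whose part in these values was not tested.

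**Figure D4:**
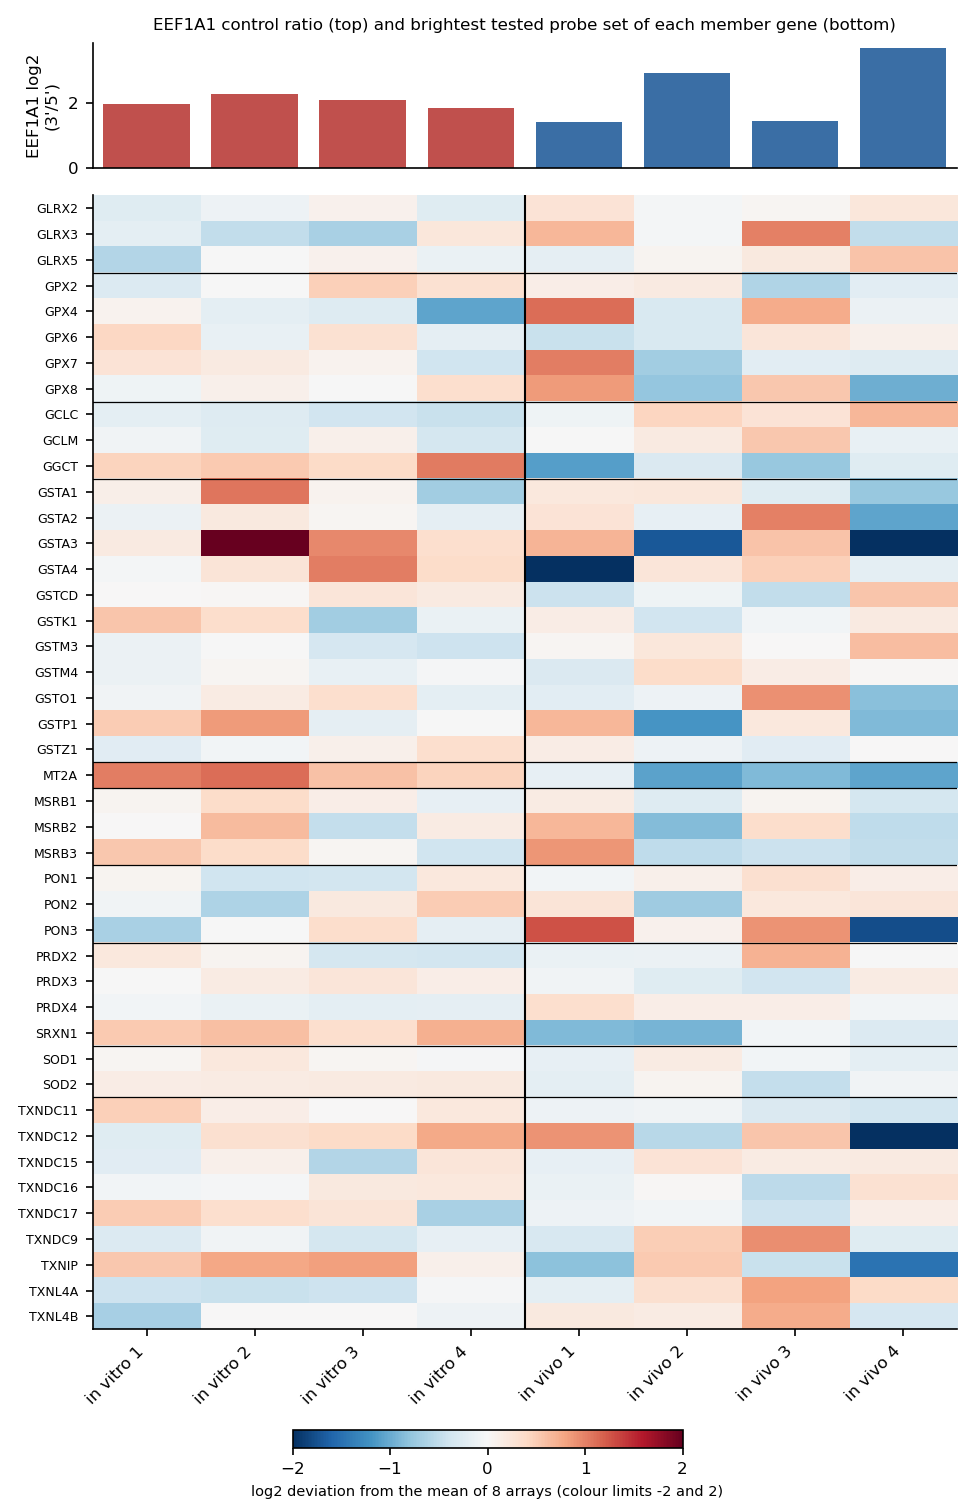
Bars at the top show the log2 ratio of 3' to 5' EEF1A1 control signals on each array (in vitro red, in vivo blue). The heat map shows, for the brightest tested probe set of each of 44 member genes, the log2 deviation of each array from the mean of all 8, with lines between roles; the EEF1A1 ratio is 2.94 and 3.67 on in vivo replicates 2 and 4, where GSTA3 and GSTP1 are low, and MT2A is high on all 4 in vitro arrays.

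Other genes that supply these enzymes were looked at through a list of 102 genes for thiol and selenium handling, NADPH supply, the NRF2 pathway and metal transport, of which 69 were tested at their brightest probe set. None passed (0 higher and 0 lower at a limma adjusted p of 0.05). At an unadjusted limma p under 0.05, 2 were higher and 5 lower, 10.1% of the list beside 10.3% of all tested probe sets. The groups did not overlap at 0 in the higher direction and 4 in the lower, 5.80% beside 6.33% of all. The list was thus near the share over all tested probe sets. SELENOP, which carries selenium in plasma, was at 1353, 1445, 1179 and 1089 in vitro and 4116, 1264, 4188 and 948 in vivo. Over all arrays it did not pass (log2 fold change -0.76, limma adjusted p = 0.535). It fell when in vivo replicates 2 and 4 were left out after seeing the data (log2 fold change -1.72, limma adjusted p = 0.000319). In that setting 1.94% of all tested probe sets were called lower. The list's median log2 fold change over all arrays was -0.07, beside 0.00 over all tested probe sets. BLVRA, biliverdin reductase, had the smallest p, at 152, 232, 307 and 253 in vitro, against 390, 513, 756 and 397 in vivo, without overlap (log2 fold change -1.09 ± 0.26 SE, limma adjusted p = 0.172). CCS, the chaperone that hands copper to SOD1, was at 71.4 ± 6.5 in vitro and 123 ± 25.2 in vivo (log2 fold change -0.70). ATP7A, a copper exporter, had 0.72 and the transferrin receptor TFRC had 1.16, while the peptidase ANPEP had -0.63 and the selenoprotein SELENOF had -0.41, and none of these passed. Symbols that equal a bare prefix were counted in this list: MSRA had -0.30 and GLRX, near background, had -0.37. TXN, thioredoxin itself, was also listed but had no probe set under that single symbol and was not analysed here.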

How the data were processed

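Total RNA of pools of 4 oocytes was purified and amplified in 2 rounds to labelled cRNA, per the labels' protocols. The deposited intensity values are linear MAS5 signals, per the submitters' processing notes (version not given in the sources used here). After the top and bottom 2% of values were dropped, each array averaged 150.0. The genome build is not given in the sources used here, so no coordinates are printed, and a planned promoter motif search was not run.

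Genes were named through the platform annotation, and 361 probe sets with several symbols and 27449 with none were left unnamed. The 99 control probe sets were left out. The pseudocount of 8.2 is the 25th percentile of the signals. Probe sets with a mean signal above the 50th percentile, 26378 in all, entered limma 3.58.1 in R 4.3.3 (lmFit, eBayes with trend), in vitro minus in vivo, with Benjamini-Hochberg adjustment at 0.05. No tested member probe set was below background on all arrays of a group. The fit was tested on simulated data.

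Genes described in full are those past the threshold, the 20 member genes with the smallest unadjusted p and a fixed set of central genes, and the remaining members are given by their log2 fold changes. Members and lists were chosen with earlier results of these data known. Alternatives were pseudocounts of 1 and 27.7, other filters and normalizations, variance models, array weights, a replicate block, 3' to 5' control ratios as covariates and each array left out. Leaving out in vivo replicates 2 and 4 together was added after seeing the data. The number of arrays limits the precision.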

Additional observations from a re-analysis of the deposited data

Results flagged for a closer look

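In 8 of 136 groups of 4 arrays, over all 68 tested member probe sets, a single array lay far from the other 3, its gap to the nearest of them taking up more of the group's log2 range than the 95% critical value of Dixon's test. Chance alone flags about 1 in 20 groups. For MSRB3, in vivo replicate 1 was high (signal 6114, gap 0.948 of the range). For PON2, in vivo replicate 2 was low (signal 29.2, gap 0.952). For GSTCD, in vivo replicate 4 was high at the dimmer probe set (signal 428, gap 0.839). For PRDX2, in vivo replicate 3 was high at the brightest probe set (signal 627, gap 0.847) and in vivo replicate 1 was high at the dimmer tested one (signal 104, gap 0.831). For TXNL4A, in vitro replicate 4 was high at the brightest probe set (signal 588, gap 0.902) and low at the probe set with a positive log2 fold change (signal 39.7, gap 0.906). For TXNL4B, in vitro replicate 1 was low at the brighter probe set (signal 115, gap 0.832).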

How the results depend on the processing

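MT2A kept its direction in every alternative tried and its call in all but the fit without the intensity trend, where its log2 fold change was 1.59 and the count of higher calls was 0. With single arrays left out its log2 fold change ran from 1.48 to 1.80. The MT2A limma adjusted p was then 0.0466 at the highest, without in vitro replicate 1, which is close to the threshold. The count of 1 higher call became 2, with GGCT added, under array weights, the EEF1A1 and beta-actin covariates, no filter, the upper-quarter filter, robust eBayes and the replicate block, and 3 without in vivo replicates 2 and 4. The count of 0 lower calls became 1 with the EEF1A1 covariate (GCLC), 2 with quantile normalization (GCLC and GSTM3) and 3 without in vivo replicates 2 and 4. With single arrays left out there were 1 to 2 higher calls (2 without in vivo replicate 4, with GGCT) and 0 to 1 lower calls (1 without in vivo replicate 1, TXNL4A). At an unadjusted p under 0.05 the lower count was 4 without the trend, 14 without in vivo replicates 2 and 4, and 3 to 11 with single arrays left out (3 when in vitro replicate 3 was dropped, 4 for in vivo replicate 3, 11 for in vivo replicate 4), and the higher count was 6 to 10. The 5 higher and 3 lower probe sets without overlap became 3 and 1 under median centring, and 12 and 14 without in vivo replicates 2 and 4. They became 5 to 8 and 3 to 6 with single arrays left out. Fewer arrays make separation easier. For these and the unadjusted counts, shares over all tested probe sets in the same settings are not given here. No result about the members is drawn from them. The members' median log2 fold change was -0.0398 with the EEF1A1 covariate, -0.0319 with the upper-quarter filter, -0.196 without in vivo replicates 2 and 4, and -0.0677 (without in vivo replicate 2) to 0.0913 with single arrays left out. The pathway list had 2 lower calls (BLVRA and SELENOP) with the EEF1A1 covariate and 1 (SELENOP) without in vivo replicates 2 and 4. The sign of the log2 fold change turned at 13 of the 68 member probe sets without in vivo replicates 2 and 4, and 12 of these became negative. They were GPX7 (-0.379), GPX8 (-0.611), the dimmer GSTA2 (-0.133), GSTK1 (-0.0209), GSTO1 (-0.298), GSTP1 (-0.148), MSRB1 (-0.0156), the brighter and dimmer MSRB2 (-0.424 and -0.590), MSRB3 (-0.0860), PON2 (-0.229) and TXNDC12 (-0.423), while GSTM4 became 0.00962. It turned with the EEF1A1 covariate for GPX7 (-0.0534), GPX8 (-0.0792), GSTO1 (-0.0263), the dimmer MSRB2 (-0.131) and PON2 (-0.0598), and with the beta-actin covariate for GPX7 (-0.0154), GSTK1 (-0.0348), the dimmer MSRB2 (-0.0669) and PON2 (-0.0781). Median centring turned GSTK1 (-0.00167), the dimmer MSRB2 (-0.0326) and PON2 (-0.0497), and the pseudocount of 27.7 turned the dimmer MSRB2 (-0.0210). Quantile normalization turned the brighter GSTA2 (0.0540) and PON2 (-0.00962), and array weights turned the brighter GSTA2 (0.0431) and a dim TXNIP probe set (-0.0703). With single arrays left out, log2 fold changes on both sides of 0 were found for GPX7 (-0.158 to 0.415), GPX8 (-0.120 to 0.488), GSTA1 (-0.0252 to 0.562), the brighter GSTA2 (-0.389 to 0.298), GSTK1 (-0.127 to 0.289), GSTO1 (-0.144 to 0.441), the brightest and dimmest GSTZ1 (-0.0181 to 0.169 and -0.448 to 7.95e-05), the brighter and dimmer MSRB2 (-0.0864 to 0.425 and -0.342 to 0.430), PON2 (-0.234 to 0.209), PON3 (-0.873 to 0.145), the dimmer PRDX2 (-0.336 to 0.0372), a dim TXNIP probe set (-0.102 to 0.744) and the dimmer TXNL4B (-0.395 to 0.0804). Over all tested probe sets the 39 calls became 302 with the EEF1A1 covariate, 88 with array weights, 66 with the beta-actin covariate, 7 without the trend, 736 without in vivo replicates 2 and 4, and 19 (without in vitro replicate 1) to 96 (without in vivo replicate 4) with single arrays left out. The cause of these changes was not tested. Same-numbered arrays showed no shared deviation from their group means, with correlations of -0.04 to 0.01. This cannot settle whether same-numbered pools were collected or processed together. The replicate block gave 44 calls over all probe sets.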
